A study of Homo sapiens with 18 samples.

Results

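PEG10, PNMA1, PNMA2, PNMA3, PNMA6A and LDOC1 are human genes that descend from the Gag gene of retrotransposons, and they were followed across arrays of 2 prostate cancer cell lines. They were read through every probe set that maps to exactly 1 symbol, which gave 9 probe sets of these 6 genes, out of 41091 such probe sets of 19775 genes and 54675 probe sets in the table. PEG10, PNMA2 and PNMA3 each had 2 probe sets, and the other genes had 1 each. The genes were listed with their values on these arrays already known, among them those of LNCaP cells overexpressing ONECUT2 against LNCaP control cells and those of LNCaP against 22Rv1 control cells. Both of those comparisons are therefore described without a test for these genes. The 22Rv1 comparisons were tested, but their p-values for these genes carry the same limit and are no independent support.

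The study asked how the homeodomain transcription factor ONECUT2 changes gene expression in prostate cancer cells. Affymetrix U133 Plus 2.0 arrays, 3 for each of 6 groups, were hybridised with total RNA. 22Rv1 cells, an androgen-independent line that came from a xenograft, were transduced with ONECUT2 cDNA in a lentiviral vector with a Myc-DDK tag, with an shRNA labelled as against ONECUT2, or with an shRNA labelled scramble, and were compared with control 22Rv1 cells. LNCaP cells, an androgen-sensitive line from a lymph node metastasis, were transduced with the same cDNA vector and compared with control LNCaP cells. Transduction used polybrene and the stable lines were selected on puromycin, each at 5 µg/mL. The labels give vehicle as the treatment of both controls and name no empty-vector line. The protocol names 2 shRNA clones, and the ending of 1 clone's identifier stands in the titles of the ONECUT2 shRNA arrays. The labels name neither the promoter of the cDNA vector nor separate cultures behind the 3 arrays of a group. The p-values therefore reflect array-to-array spread, possibly only technical.

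PEG10 is a paternally expressed, imprinted gene needed for the placenta in mice. Its mRNA is read through a ribosomal frameshift into a longer Gag-Pol protein, and PEG10 has been linked to neuroendocrine change in prostate cancer. The PNMA genes encode proteins first known as targets of autoantibodies in paraneoplastic neurological disease, and PNMA2 protein forms capsids. LDOC1 encodes a small nuclear protein with a leucine zipper, reported as reduced in some cancer cell lines.

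Values are log2 expression values, so a difference of 1 is a 2-fold change, and probe sets above 4 on at least 3 arrays were tested. A value under 4 was treated as background, and folds against a group wholly under 4, or partly under it for PEG10, are given as lower bounds with such values raised to 4. The 18 arrays had medians between 3.26 and 3.34, and between 38.3% and 40.0% of probe sets lay above 4. The lowest correlation between arrays of a group was 0.975, for LNCaP ONECUT2 replicates 1 and 2, and at least 0.996 in the other groups. Of 79 probe sets above 9 on every 22Rv1 ONECUT2 array and under 4 on every LNCaP control array, 41, 37 and 7 were under 4 on LNCaP ONECUT2 replicates 1, 2 and 3, with medians of 3.85, 4.08 and 5.61. The 3 LNCaP ONECUT2 arrays thus differ among themselves, replicate 3 on these probe sets and replicate 1 on others, such as PEG10 and PEG3 below. Member values in LNCaP are also given without the array that moves them.

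Marker lists were set beside the members, and their part in the members' results was not tested. Of the luminal epithelial list 4 genes were read, in 6 probe sets. KRT18 and EPCAM lay between 11.66 and 13.43 on all arrays, and KRT8 between 6.79 and 11.06. KLK3, the gene of prostate-specific antigen, ranged from 3.82 to 13.26 over its probe sets. It fell by 3.02 in 22Rv1 ONECUT2 cells (adjusted p = 0.00105) and by 6.68 in LNCaP ONECUT2 cells (adjusted p = 3.97e-07). The LNCaP ONECUT2 arrays read 9.13, 5.08 and 5.51 on the tested probe set. The list went both ways. Of the 4 genes 2 were higher and 2 lower in 22Rv1 ONECUT2 cells, where 57.0% of all probe sets passed. In LNCaP ONECUT2 cells 2 were higher and 1 lower, where 57.8% passed. EPCAM rose by 1 in 22Rv1 (adjusted p = 4.12e-08) and by 0.84 in LNCaP (adjusted p = 2.81e-07). Of 14 stromal probe sets 8 stayed under 4. COL1A1, a collagen gene, read 7.38 or more on every array on 1 probe set, which rose by 2.12 in 22Rv1 ONECUT2 cells (adjusted p = 6.77e-06) and by 3.64 in LNCaP ONECUT2 cells (adjusted p = 1.24e-08). LUM, which encodes a matrix proteoglycan, reached 7.59 and was at least 3.14-fold lower in 22Rv1 ONECUT2 cells (adjusted p = 1.54e-10). All 6 leukocyte probe sets stayed under 4 on every array, as did 7 of 8 endothelial ones, with VWF reaching 4.5. Of 12 neuroendocrine probe sets 9 stayed under 4, SYP among them, while INSM1 reached 4.56, CHGA 6.53 and ENO2 10.84. ENO2 rose by 1.66 in 22Rv1 ONECUT2 cells (adjusted p = 4.18e-05). It was at least 23.9-fold higher in LNCaP ONECUT2 cells than in LNCaP control (adjusted p = 3.55e-11). CHGA rose by 0.78 in 22Rv1 ONECUT2 cells (adjusted p = 0.0273) and was not called in LNCaP ONECUT2 cells (adjusted p = 0.21). INSM1 was not tested.

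ONECUT2 went against the labels in 1 arm. On its probe set with the highest mean the arrays labelled ONECUT2 shRNA read 8.46, 9.0 and 9.12, against 6.63, 6.71 and 7.08 on the arrays labelled scramble. The difference was 2.05 ± 0.16 (log2 ± SE), adjusted p = 1.1e-07. On the other tested probe sets it was 1.97, 1.74 and 0.17, the last not past the threshold (adjusted p = 0.792) and from the probe set that differs by 3.68 in LNCaP ONECUT2 cells. Between arrays labelled scramble and 22Rv1 control arrays ONECUT2 differed by -1.41, adjusted p = 1.01e-05. 22Rv1 ONECUT2 cells read 8.59, 8.81 and 8.85, against 8.23, 8.15 and 8.25 in 22Rv1 control cells, and LNCaP ONECUT2 cells 7.23, 7.31 and 7.28, against 6.58, 6.53 and 6.72 in LNCaP control cells. ONECUT2 was thus higher by 0.54 in 22Rv1 (adjusted p = 0.00797) and by 0.66 in LNCaP (adjusted p = 0.00181). Its other tested probe sets disagreed in 22Rv1 ONECUT2 cells, at 1.16, 1.13 and -0.97, and ranged from 0.23 to 3.68 in LNCaP ONECUT2 cells. In every comparison of the 2 shRNA arms below, directions follow the labels, and the labels and the ONECUT2 values disagree.

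PEG10 gave different answers on its 2 probe sets. On 212094_at, 22Rv1 ONECUT2 cells read 11.96, 12.05 and 12.03, against 12.42, 12.31 and 12.50 in 22Rv1 control cells. On 212092_at, 22Rv1 ONECUT2 cells read 4.64, 4.30 and 4.36, against 8.79, 8.29 and 8.57 in control cells. Neither probe set had overlapping groups, but the differences were of unlike size. PEG10 fell on 212092_at by 4.12 ± 0.16 on the log2 scale, a 17.4-fold lower value (adjusted p = 1.1e-11). On 212094_at the difference was -0.40 ± 0.25 and did not pass (adjusted p = 0.186). It passed when only the 2 groups were fitted (adjusted p = 0.000129) and with array weights (adjusted p = 0.000897). The main fit shares 1 spread over all arrays. On this probe set the SD was 0.05 in 22Rv1 ONECUT2 cells and 0.09 in 22Rv1 control, but 0.77 in LNCaP ONECUT2 cells.

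**Figure D1:**
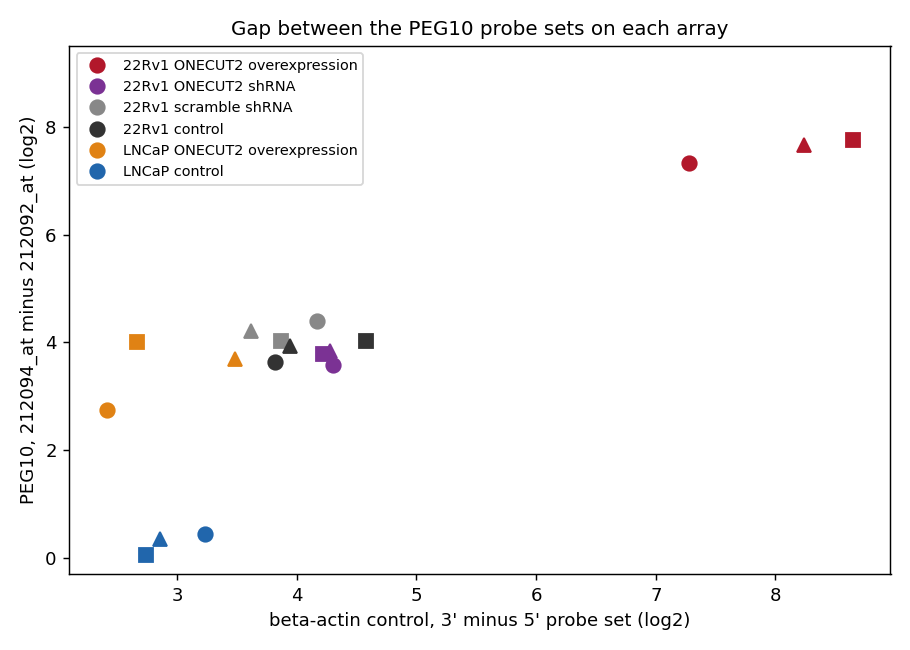
Each point is 1 of the 18 arrays, coloured by group and shaped by replicate. The y axis is PEG10 on 212094_at minus 212092_at (log2) and the x axis the beta-actin 3′ minus 5′ control difference (log2). The 22Rv1 ONECUT2 arrays lie between 7.32 and 7.75 for PEG10, and the 22Rv1 control arrays between 3.63 and 4.03.

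The distance between the 2 PEG10 probe sets was 7.58 ± 0.23 in 22Rv1 ONECUT2 cells and 3.86 ± 0.21 in 22Rv1 control cells (SD, n = 3 each). It was 3.73 ± 0.14 on arrays labelled ONECUT2 shRNA and 4.21 ± 0.19 on those labelled scramble. The actin control has 3′ and 5′ probe sets that read the ends of a single transcript. Their difference was 8.06 ± 0.70 in 22Rv1 ONECUT2 cells and 4.11 ± 0.41 in 22Rv1 control cells. It was 4.27 ± 0.04 on arrays labelled ONECUT2 shRNA and 3.89 ± 0.28 on those labelled scramble. The GAPDH control moved in the same direction as actin in 22Rv1 ONECUT2 cells, but by a smaller amount. Its 3′ minus 5′ difference was -0.44 ± 0.13 in 22Rv1 ONECUT2 cells and -0.70 ± 0.09 in 22Rv1 control cells. The part of the actin difference in the PEG10 result was not tested, and where the PEG10 probe sets lie on the transcript was not analysed here. In LNCaP ONECUT2 cells the PEG10 distance was 3.48 ± 0.66 with an actin difference of 2.85 ± 0.56, against 0.29 ± 0.21 and 2.94 ± 0.26 in LNCaP control cells.

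In LNCaP cells PEG10 read 6.57, 7.92 and 7.91 on 212094_at after ONECUT2 overexpression, against 4.10, 3.56 and 3.73 in control cells. Every ONECUT2 array was above every control array, and 2 of the 3 control arrays were under 4. ONECUT2 cells were at least 10.8-fold higher. The difference of the means was 3.67, and 3.44 to 4.12 with any 1 ONECUT2 array left out, 4.12 being without replicate 1. On 212092_at the same cells read 3.83, 3.92 and 4.21, against 3.65, 3.50 and 3.37 in control cells. Both groups lay around the background level there, so this probe set gives little information in LNCaP. Between the control lines PEG10 on 212094_at averaged 3.80 in LNCaP and 12.41 in 22Rv1, at least 333-fold lower in LNCaP. On 212092_at it was at least 23.4-fold lower in LNCaP control cells.

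The arrays labelled ONECUT2 shRNA read 12.63, 12.66 and 12.62 for PEG10 on 212094_at, against 12.53, 12.48 and 12.75 on those labelled scramble. These overlapped, and the difference was 0.05 (adjusted p = 0.916). On 212092_at they read 9.06, 8.88 and 8.77, against 8.13, 8.46 and 8.54, with no overlap. That rise of 0.52 ± 0.16 passed (adjusted p = 0.0262), but not without replicate 1 or 2 of ONECUT2 shRNA (adjusted p = 0.1 and 0.0594) or replicate 1 of scramble (adjusted p = 0.132). Between arrays labelled scramble and 22Rv1 control arrays PEG10 differed by 0.18 on 212094_at (adjusted p = 0.687) and by -0.17 on 212092_at (adjusted p = 0.52).

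**Figure D2:**
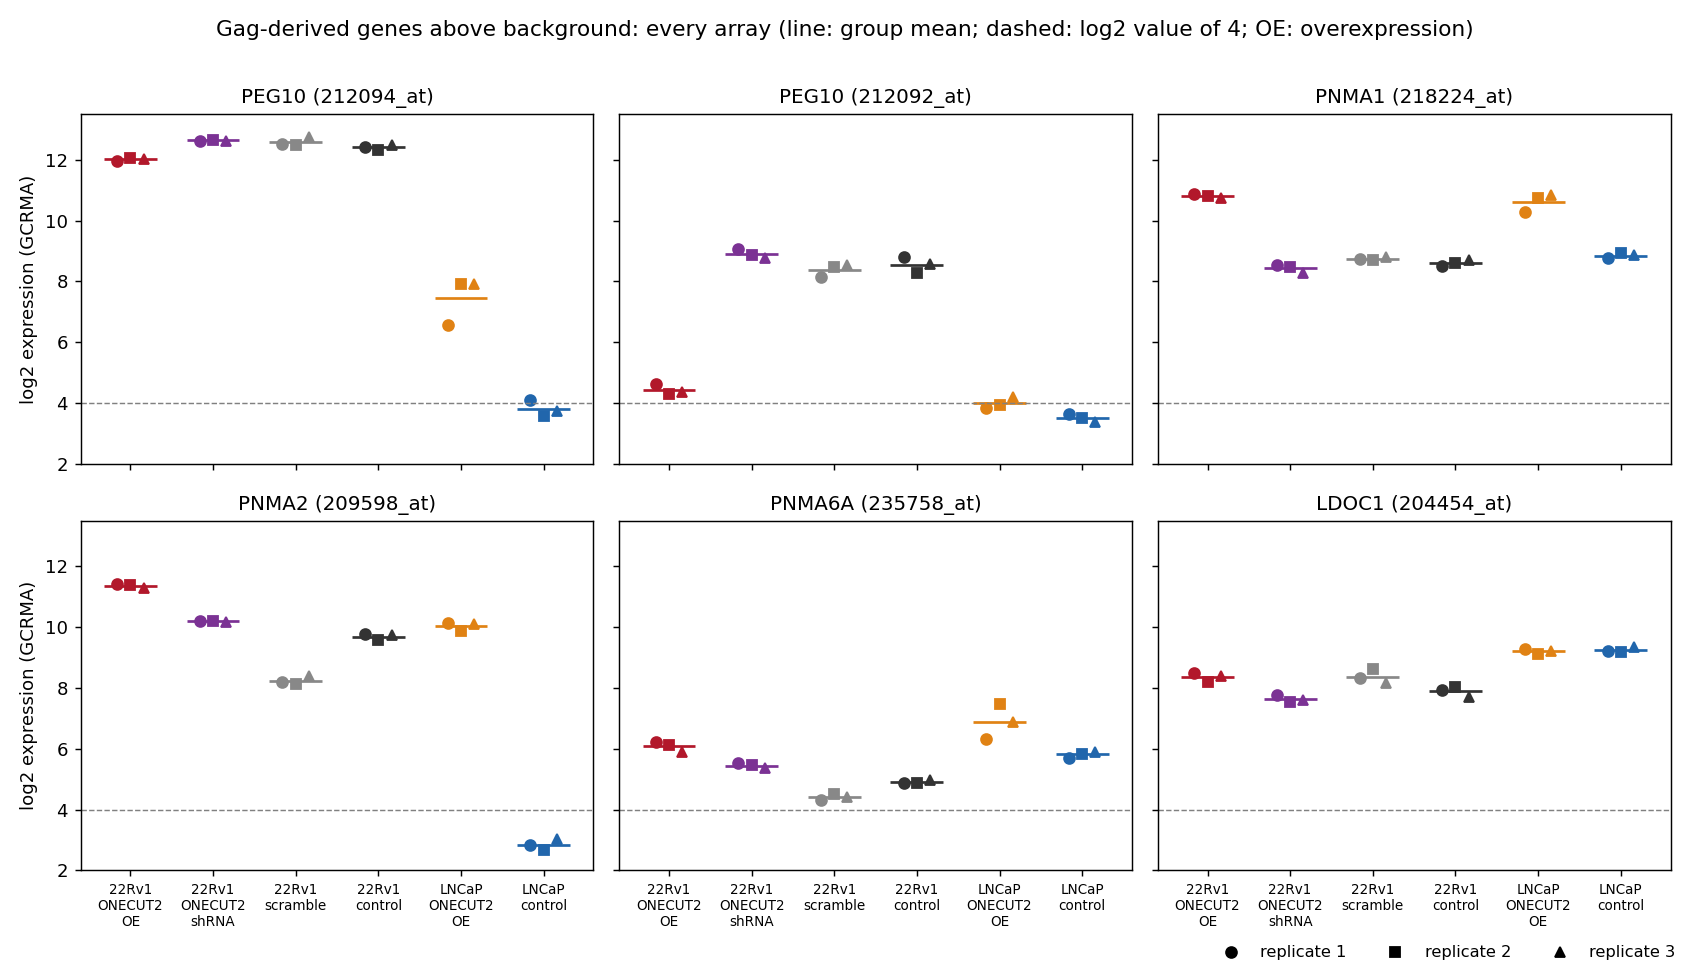
Log2 expression of the 6 probe sets read above 4 on some array, for each of the 18 arrays by group (marker: replicate; line: group mean; dashed line: 4). PNMA2 on 209598_at spans 2.66 to 11.41, with the LNCaP control arrays alone under the dashed line.

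PNMA2 on 209598_at separated all 6 groups with no overlap between neighbours in the order. It ran from 11.37 ± 0.06 in 22Rv1 ONECUT2 cells, through 10.20 ± 0.03 on arrays labelled ONECUT2 shRNA, 10.04 ± 0.13 in LNCaP ONECUT2 cells, 9.69 ± 0.11 in 22Rv1 control and 8.24 ± 0.15 on arrays labelled scramble, to 2.84 ± 0.18 in LNCaP control (SD, n = 3 each). LNCaP ONECUT2 cells read 10.14, 9.89 and 10.09, against 2.84, 2.66 and 3.02 in LNCaP control cells. This is at least a 65.8-fold higher level, and the fitted difference was 7.20, or 7.17 without replicate 3. PNMA2 is 1 of the 79 probe sets described above, and its LNCaP ONECUT2 replicate 3 lay between the other replicates. LNCaP control was at least 51.7-fold below 22Rv1 control.

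In 22Rv1 cells PNMA2 read 11.41, 11.40 and 11.30 with ONECUT2, against 9.78, 9.57 and 9.73 in control cells. It rose by 1.68 ± 0.12, or 3.2-fold (adjusted p = 4.41e-09). Arrays labelled ONECUT2 shRNA read 10.21, 10.21 and 10.17, against 8.19, 8.13 and 8.41 on those labelled scramble, a rise of 1.95 ± 0.12, or 3.87-fold (adjusted p = 6.26e-09). Arrays labelled scramble were 2.73-fold below 22Rv1 control (adjusted p = 2.38e-07). On its probe set with the highest mean, ONECUT2 differed by 0.54, 2.05 and -1.41 in the same 3 comparisons. On its other tested probe sets the differences ran from -0.97 to 1.16, from 0.17 to 1.97 and from -1.72 to -0.43. Any likeness to PNMA2 thus depends on the ONECUT2 probe set. Whether PNMA2 follows ONECUT2 over these comparisons was not tested. The scramble and control arrays each serve in 2 of these comparisons, so they are not independent. The other PNMA2 probe set, 209597_s_at, read 2.05 to 2.62 on all 18 arrays.

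PNMA1, the family member whose protein was first found as an onconeural antigen, was higher with ONECUT2 in both lines. 22Rv1 ONECUT2 cells read 10.89, 10.80 and 10.74, against 8.51, 8.61 and 8.70 in control cells. The rise of 2.20 ± 0.13, or 4.6-fold, passed (adjusted p = 6.68e-10). LNCaP ONECUT2 cells read 10.28, 10.74 and 10.85, against 8.76, 8.94 and 8.87 in control cells, a 3.4-fold higher value with no overlap. The log2 difference was 1.77, and 1.65 without replicate 3. The 2 control lines differed by 0.25. Arrays labelled ONECUT2 shRNA averaged 8.43, against 8.74 for scramble, without overlap but not past the threshold (adjusted p = 0.0888). That difference passed when only the groups compared were fitted (adjusted p = 0.0449) and with array weights (adjusted p = 0.00332). The scramble and control arrays overlapped (0.13, adjusted p = 0.526).

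PNMA3 and PNMA6A lie next to each other on chromosome X in the RefSeq order of protein-coding genes, between PNMA5 and MAGEA1. The 250 bases before each start site are shown because the neighbours share stretches of sequence, and RefSeq (GRCh38.p14) places them at chrX:153056220-153056469 for PNMA3 and chrX:153072204-153072453 for PNMA6A, both on the plus strand. Capitals mark runs of at least 12 bases shared by both.
PNMA3: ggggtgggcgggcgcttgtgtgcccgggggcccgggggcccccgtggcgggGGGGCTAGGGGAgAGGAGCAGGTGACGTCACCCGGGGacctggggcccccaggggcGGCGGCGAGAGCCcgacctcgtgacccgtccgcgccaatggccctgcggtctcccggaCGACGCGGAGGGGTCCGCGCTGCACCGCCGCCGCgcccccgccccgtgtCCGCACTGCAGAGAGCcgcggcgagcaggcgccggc
PNMA6A: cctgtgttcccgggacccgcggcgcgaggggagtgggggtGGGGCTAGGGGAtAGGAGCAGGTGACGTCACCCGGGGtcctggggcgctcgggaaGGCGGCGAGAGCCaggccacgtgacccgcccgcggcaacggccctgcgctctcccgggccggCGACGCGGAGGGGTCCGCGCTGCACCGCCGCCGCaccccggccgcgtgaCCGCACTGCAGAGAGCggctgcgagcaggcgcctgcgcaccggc
Of 232 aligned positions 204 were identical, or 87.9%, and there were 5 shared runs of at least 12 bases, with 34 in the longest. The palindrome TGACGTCA, the full cAMP response element that CREB and ATF factors bind, occurs in both sequences, as in 1.65% of 35116 RefSeq promoters searched on both strands. ATCGAT and ATTGAT, core letters bound by ONECUT proteins, occur in neither sequence nor in that of LDOC1, and 1 or the other occurs in 6.19% of promoters. PEG10, PNMA1 and PNMA2 had no promoter entry, so only 3 of the 6 genes were searched. A match is a description of letters and not a site.

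PNMA3 stayed under 4 on every array. On 223621_at LNCaP ONECUT2 cells read 3.75, 3.64 and 3.64, against 2.87, 3.01 and 2.98 in LNCaP control cells, and the other 4 groups read 2.44 to 2.84. On 220923_s_at the 18 arrays lay between 3.16 and 3.85. The PNMA6A probe set read above 4 in all groups. PNMA6A read 6.21, 6.12 and 5.90 in 22Rv1 ONECUT2 cells, against 4.89, 4.89 and 4.98 in control cells, and rose by 1.16 ± 0.20, or 2.23-fold (adjusted p = 9.97e-05). LNCaP ONECUT2 cells read 6.33, 7.47 and 6.88, against 5.70, 5.83 and 5.91 in control cells. That is 2.11-fold higher with no overlap. The log2 difference of 1.08 was also 1.08 without replicate 3, and 0.79 without replicate 2, which is under 2-fold. Arrays labelled ONECUT2 shRNA averaged 5.45, against 4.42 for scramble, a rise of 1.04 ± 0.20 (adjusted p = 0.00104). Scramble was 0.50 below control (adjusted p = 0.0815), and this passed when only these groups were fitted (adjusted p = 0.0059) and with array weights (adjusted p = 9.91e-05). Copies of such families can share probe sequence, so PNMA3 and PNMA6A values are uncertain to that extent.

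LDOC1 was highest in LNCaP cells, where the ONECUT2 and control arrays overlapped. It rose by 0.48 ± 0.13, or 1.39-fold, in 22Rv1 ONECUT2 cells (adjusted p = 0.00537), which read 8.51, 8.21 and 8.39 against 7.93, 8.04 and 7.72 in control cells. LNCaP ONECUT2 cells averaged 9.22 ± 0.09 and LNCaP control cells 9.25 ± 0.09 (SD, n = 3 each). Arrays labelled ONECUT2 shRNA read 7.76, 7.55 and 7.60, against 8.32, 8.61 and 8.16 for scramble, and fell by 0.72 ± 0.13 (adjusted p = 7.11e-04). The scramble arrays were 1.38-fold above 22Rv1 control (adjusted p = 0.018), but not without scramble replicate 2 (adjusted p = 0.1) or control replicate 3 (adjusted p = 0.0952). LNCaP control was 2.56-fold above 22Rv1 control.

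**Figure D3:**
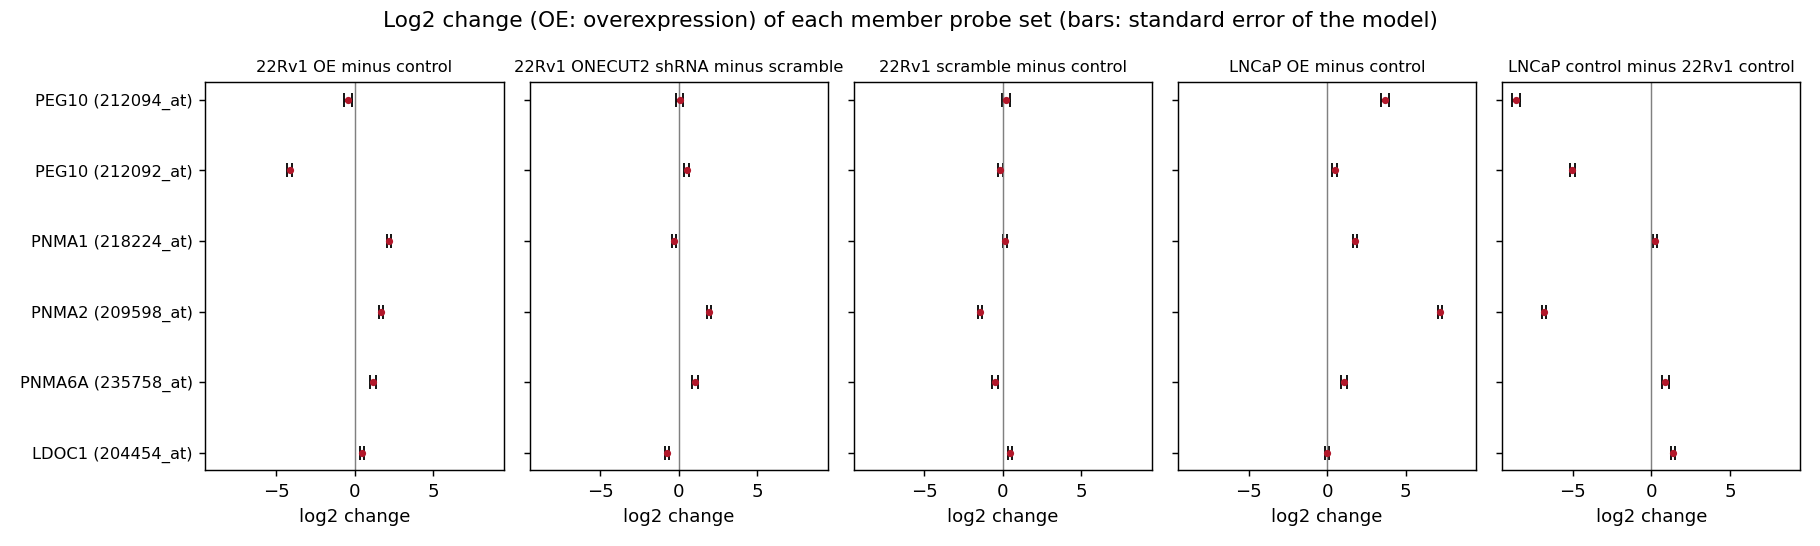
Log2 difference of each member probe set in the 5 comparisons, with the standard error of the fit, for those read above 4 on at least 3 arrays. PNMA2 in LNCaP ONECUT2 minus control is the topmost value, at 7.20, and PEG10 on 212094_at in LNCaP control minus 22Rv1 control the lowest, at -8.62.

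Of the 9 probe sets 6 passed the filter. In 22Rv1 ONECUT2 cells 4 rose and 1 fell, where 57.0% of all 24871 probe sets passed (30.8% higher and 26.2% lower). Their median difference was 0.82, against 0.03 over all. Between the arrays labelled ONECUT2 shRNA and scramble 3 were higher and 1 lower, where 26.5% of all passed (12.4% higher and 14.1% lower), with a median of 0.29 against -0.03. Scramble against control gave 1 higher and 1 lower, where 21.6% passed (10.8% each way), with a median of -0.02 against 0.03. In LNCaP ONECUT2 cells 4 of 9 were at least 2-fold higher without overlap, where 5.14% of 54613 probe sets were higher and 5.65% lower (10.8% in all). In LNCaP control against 22Rv1 control 1 of 9 was higher and 3 lower, where 7.19% and 6.67% were (13.9% in all). The members were chosen with their values on these arrays known, so nothing is read from any of these counts or medians.

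Other Gag-derived genes were read in 19 probe sets of 16 genes, of which 10 genes were tested. In 22Rv1 ONECUT2 cells 5 of the 10 rose and none fell, where 57.0% of all probe sets passed (30.8% higher and 26.2% lower). Without LNCaP ONECUT2 replicate 1 or 2, which enter the shared spread, RTL8A was also called lower there, at -0.40 (adjusted p = 0.01 and 0.0169). MOAP1, a regulator of cell death that binds BAX, rose by 1.09 (adjusted p = 2.71e-09), PNMA8A by 2.42 ± 0.88 (adjusted p = 0.0272), SCAND1 by 0.67 (adjusted p = 0.00609) and ZCCHC12 by 0.64 (adjusted p = 0.000729). The standard error of PNMA8A comes from the spread shared by all 18 arrays. Its SD was 0.03 in 22Rv1 ONECUT2 cells and 0.04 in 22Rv1 control, but 2.94 in LNCaP ONECUT2 cells. ZCCHC12 averaged 4.57 against 3.93 in 22Rv1 control, near the background level. MOAP1 was also higher in LNCaP ONECUT2 cells, by 0.75 (adjusted p = 1.99e-07), and lower on the arrays labelled ONECUT2 shRNA than on scramble, by 0.67 (adjusted p = 4.92e-06). ZCCHC18, a zinc finger CCHC protein gene, went the other way in that arm, at 0.56 (adjusted p = 0.00464), and rose by 0.53 in 22Rv1 ONECUT2 cells (adjusted p = 0.00244). In all, 1 of 10 was higher and 4 lower on the arrays labelled ONECUT2 shRNA than on scramble, where 26.5% of all passed. On scramble 3 were higher and none lower than on 22Rv1 control, where 21.6% passed. In LNCaP ONECUT2 cells 5 of 10 were higher and 1 lower, where 57.8% of all probe sets passed (28.3% higher and 29.5% lower). Among the higher, ZCCHC12 averaged 4.19 against 3.45 in LNCaP control, and ZCCHC18 3.86 against 3.4. Both thus lay around the background level. The lower gene was RTL8A, at -0.46 (adjusted p = 0.0457), a call lost without replicate 2 or 3. RTL5 read 4.52, 7.18 and 6.76 there and was under 4 in LNCaP control, at least 4.45-fold higher (adjusted p = 7.08e-06). It was above 4 on these 3 arrays only and passed the filter through them. Its p-value and its place among the 5 are therefore no support. PNMA8A read 2.39, 3.28 and 7.87 on LNCaP ONECUT2 replicates 1, 2 and 3, so its difference of 2.07 rests on replicate 3 (adjusted p = 0.0547, and 0.088 without it).

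**Figure D4:**
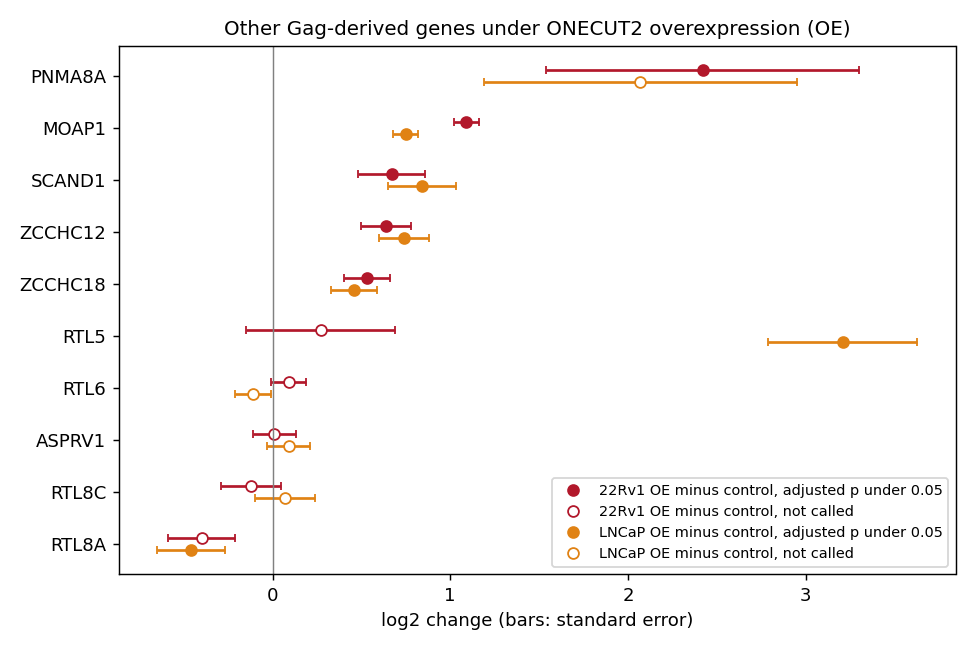
Log2 difference of ONECUT2 overexpression minus control for the 10 tested other Gag-derived genes, in 22Rv1 and in LNCaP (bars: standard error of the fit; filled points: adjusted p under 0.05). MOAP1 lies right of 0 in both lines, at 1.09 and 0.75. RTL5, above 4 only on the LNCaP ONECUT2 arrays, reaches 3.21 in LNCaP.

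Of 9 genes of the imprinted cluster around PEG10 on chromosome 7, 5 were tested, and 3 of them fell and none rose in 22Rv1 ONECUT2 cells, where 57.0% of all passed (26.2% lower). Without LNCaP ONECUT2 replicate 1 the count was 1 higher, CASD1 (0.32, adjusted p = 0.0272), and 4 lower, with PPP1R9A (-0.74, adjusted p = 0.00156). PPP1R9A was also called without replicate 2 (adjusted p = 0.0245). SGCE, the epsilon-sarcoglycan gene that lies beside PEG10 and is imprinted with it, fell by 1.03 ± 0.22 in 22Rv1 ONECUT2 cells (adjusted p = 6.98e-04), and PON1, a serum paraoxonase, fell by 2.93 ± 0.15 (adjusted p = 1.41e-10). PON1 was 1.93 higher on arrays labelled ONECUT2 shRNA than on scramble (adjusted p = 1.13e-07) and differed by -1.67 between scramble and control (adjusted p = 7.84e-07). In LNCaP ONECUT2 cells SGCE read 4.28, 3.88 and 5.13, at least 1.34-fold above LNCaP control, which lay under 4 (0.82 ± 0.22, adjusted p = 0.00412). Without replicate 3 the difference was 0.47 (adjusted p = 0.0157). PPP1R9A, the neighbour on the other side, fell by 1.81 in LNCaP ONECUT2 cells (adjusted p = 0.00111), which read 7.36, 4.68 and 5.72 on replicates 1, 2 and 3. It fell by 2.53 without replicate 1. LNCaP control was at least 79.5-fold below 22Rv1 control for SGCE and at least 42.7-fold for PON1, and of the 5 genes 1 was higher and 4 lower, where 63.3% of all probe sets passed (32.4% higher and 30.8% lower).

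Other imprinted genes moved both ways. MEST, a paternally expressed gene, read 10.32 ± 0.37 in LNCaP ONECUT2 and 6.77 ± 0.09 in LNCaP control (SD, n = 3 each; adjusted p = 7.7e-13), and CDKN1C, a cyclin-dependent kinase inhibitor, rose in both lines, by 1.93 in 22Rv1 (adjusted p = 7.87e-08) and by 4.25 in LNCaP (adjusted p = 3.68e-12). L3MBTL1 rose by 3.73 in 22Rv1 (adjusted p = 1.29e-11) and 0.68 in LNCaP (adjusted p = 0.00104). PEG3, paternally expressed like PEG10, was 4.37 higher in LNCaP control than in 22Rv1 control (adjusted p = 4.09e-08) and fell by 1.32 in LNCaP ONECUT2 cells (adjusted p = 0.00721). These read 12.26, 10.14 and 10.07, against 12.28, 12.02 and 12.14 in LNCaP control, so replicate 1 lay with the control arrays. Without replicate 3 the difference was -0.95 and not called (adjusted p = 0.0518), and without replicate 1 it was -2.04. In LNCaP ONECUT2 cells PHLDA2, a maternally expressed gene, rose by 1.48 (adjusted p = 1.17e-06) and GRB10, an adaptor of growth factor receptors, fell by 1.02 (adjusted p = 0.000939). Of 11 tested, 6 were higher and 3 lower in 22Rv1 ONECUT2 cells, where 57.0% of all passed, and 7 and 4 without LNCaP ONECUT2 replicate 1. In LNCaP ONECUT2 cells 6 were higher and 4 lower, where 57.8% passed, and 6 and 2 without replicate 2 or without replicate 3. On arrays labelled ONECUT2 shRNA 3 were higher and 2 lower than on scramble, where 26.5% passed.

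Factors reported to act on or bind PEG10 were lower where called in the overexpression arms. Of 7 tested, 3 fell in 22Rv1 and 5 in LNCaP. Without LNCaP ONECUT2 replicate 1 these were 4 and 6, with USP9X also called lower in both. E2F1, a cell-cycle activator, fell by 1.59 in 22Rv1 ONECUT2 cells (adjusted p = 3.78e-07) and by 1.15 in LNCaP (adjusted p = 1.33e-05). MYC fell by 0.70 (adjusted p = 0.00102) and by 2.77 (adjusted p = 2.48e-10), and UBQLN2, which controls PEG10 protein turnover, by 0.72 (adjusted p = 3.83e-06) and 0.37 (adjusted p = 0.00208). Over all probe sets 57.0% passed in 22Rv1 (26.2% lower) and 57.8% in LNCaP (29.5% lower). On arrays labelled ONECUT2 shRNA 2 of the 7 were higher and none lower than on scramble, where 26.5% passed. These were E2F3 (0.91, adjusted p = 0.01) and MYC (0.65, adjusted p = 0.00524). Without LNCaP ONECUT2 replicate 1 that count was 2 higher and 2 lower. Scramble against control gave 1 lower, MYC (-0.53, adjusted p = 0.0231), where 21.6% passed. Without LNCaP ONECUT2 replicate 3 MOAP1, MEST, CDKN1C, L3MBTL1, PHLDA2, GRB10, PPP1R9A, E2F1, MYC and UBQLN2 kept their calls in LNCaP.

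The genes whose profile over the 18 arrays was nearest to PEG10 (212094_at) were PLOD2, a collagen lysyl hydroxylase, BEX1, RASGEF1A, SSX3 and SLC60A1. Their centred profiles lay 0.42, 0.62, 0.62, 0.66 and 0.73 log2 from it (root mean square). For PNMA2 (209598_at) they were ALDH5A1, TUBB6, NID1, TUBB2B and ENO2, at 0.54, 0.57, 0.59, 0.62 and 0.79. ALDH5A1 averaged 8.65 in LNCaP ONECUT2 and 1.46 in LNCaP control. Nothing about shared function or control is taken from this likeness.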

How the data were processed

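RNA from 18 samples was measured on 1-colour arrays. Per the submitters' processing notes the authors used GCRMA, whose version is not given in the sources used here, and the deposited table holds log2 values that GCRMA had already background-corrected and normalized. No values were normalized again in the main analysis. Probe sets were named through the platform table and updated by gene identifier: 41091 had 1 symbol, 1801 several and 11721 none, and 62 controls were left out.

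The 24871 of 54613 probe sets above log2 4 on at least 3 arrays were tested with limma 3.58.1 (R 4.3.3). A single model of all arrays fitted 6 group means with trended and robust empirical Bayes, and Benjamini-Hochberg adjustment over all of them at 0.05. The fit was tested on simulated data. The members and lists were chosen with earlier results of these data known. Some listed genes are not reported here. All member probe sets are named, with up to 4 members of each list by smallest p in each comparison, and the 5 genes nearest to PEG10 and to PNMA2 by root mean square difference of centred profiles. CASD1, PEG3, PNMA8A, RTL8A and the marker genes were named after their values were seen. Alternatives were array centring, quantile normalization, other filters, plain empirical Bayes, fits on the compared groups alone, array weights, 1 probe set per gene, a replicate block and leaving out each replicate. The number of arrays limits the precision. Promoters came from RefSeq and were aligned with Biopython 1.88.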

Additional observations from a re-analysis of the deposited data

Results flagged for a closer look

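In 4 probe sets all ONECUT2 overexpression arrays of LNCaP lay above their control mean and all those of 22Rv1 below theirs. The difference between the lines was not tested. PEG10 212094_at changed by 3.67 in LNCaP and -0.40 in 22Rv1. PEG10 212092_at changed by 0.48 in LNCaP and -4.12 in 22Rv1. PNMA2 209597_s_at changed by 0.28 in LNCaP and -0.25 in 22Rv1, and PNMA3 223621_at by 0.73 and -0.14, with both probe sets under 4 on all arrays.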

How the results depend on the processing

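Member probe sets called numbered 5 in 22Rv1 ONECUT2 against control, 4 in the ONECUT2 shRNA against scramble arrays and 2 in scramble against control. With array weights the last count was 4. Leaving out each replicate gave 5 to 5, 3 to 4 and 1 to 2. The untested descriptions gave 3 to 4 in LNCaP ONECUT2 against control and 4 to 4 in LNCaP control against 22Rv1 control. PEG10 212094_at in the shRNA arms was 0.05, and leaving out each replicate gave -0.01 (without scramble replicate 2, a reversal) to 0.13. The cause was not tested. With array weights PEG10 212092_at in scramble against control was called, at -0.33 (adjusted p = 0.0381). LDOC1 in LNCaP ONECUT2 against control was 0.10 after quantile normalization and -0.14 with array weights. Apart from these and the calls given above, 516 values counted as unchanged. In the tested comparisons that means the same direction and side of the threshold. In the untested ones it means a shift smaller than the larger group SD. A change of sign was not counted there for members that overlapped or differed by less than 2-fold. The replicate numbers did not pair the arrays: correlations of same-numbered deviations ran from -0.18 to 0.39, in 0 of 15 group pairs were all above 0.1, and 9 of 18 arrays were nearest their own number. With the replicate block 5, 4 and 2 members were called, and no member call changed. With no filter on low values PNMA2 209597_s_at was also called in 22Rv1 ONECUT2 against control, at -0.25 (adjusted p = 0.0485). Values near log2 4 limit PNMA3, PEG10 in LNCaP control and the PNMA2 probe set 209597_s_at. Array weights stopped before convergence.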
